A study of Mus musculus with 10 samples.

Results

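The genes described here are the 19 Wnt ligands of the mouse, their 10 Frizzled receptors and 4 further receptors, Lrp5, Lrp6, Ror1 and Ror2. They were chosen by name, as 33 of 21887 protein-coding genes on the assembled chromosomes, and every listed cytosine with at least 5 reads in both libraries within the gene span plus 2 kb either side was taken. This gave 9127 cytosines in 6013 CpGs, of 6745376 cytosines in the whole table, and 86 of them lay in the regions of 2 members, since Wnt3 and Wnt9b overlap.

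Methylation came from RRBS, bisulfite sequencing of a reduced part of the genome, which reads CpGs near restriction sites and therefore covers CpG-rich DNA best. Per the labels, the cells were spermatogonia of LT-11B6 mice, which carry an Id4-eGfp transgene on a C57BL/6 background, taken from testes of pups at postnatal day 6, positive for ID4-EGFP and sorted on the cell surface protein TSPAN8 into the most strongly stained (TSPAN8-high) and the most weakly stained cells (TSPAN8-low). Pooled DNA of 5 sorts went into the 1 library of each fraction, so no value here has an error between replicates, and every test compares the 2 libraries, not the conditions. The other 8 samples of the series (immunoprecipitated chromatin and its input) were not analysed here. Pairs of values are given with TSPAN8-high first. Coverage summed over listed cytosines was 83658949 and 83773700, where a read counts at each cytosine it covers. The median cytosine had 10 reads in each library, in the member regions as well. Starts of 10 of 10 measured germ cell genes that somatic cells methylate, among them Dazl and Ddx4, were below 20% in both libraries (0.826% to 15.6%), and of 8 measured maternally methylated imprinted genes, which male germ cells leave unmethylated, 7 were below 20%, with Peg3 at 0.754% and 0.820%. The eighth, Impact, had 95.5% and 93.6% over 6 CpGs at the start used. Among the 7, Mest was highest, at 13.2% and 13.4%. Over all protein-coding genes 84.3% of starts were below 20% in both libraries, so these counts do not by themselves identify the cells. The windows were placed at gene starts, and whether they hold the imprinted regions was not tested.

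Wnt proteins are secreted, lipid-modified glycoproteins. They bind the cysteine-rich domain of Frizzled receptors on the cell surface, and with LRP5 or LRP6 as co-receptor they stabilise beta-catenin, which then acts with TCF and LEF factors in the nucleus. ROR1 and ROR2 are receptor tyrosine kinases that bind WNT5A and act without beta-catenin. In the testis, Wnt ligands from Sertoli and other cells are known to act on spermatogonia, WNT5A as a survival factor of stem cells and WNT6 through beta-catenin signalling. Most Frizzled genes are compact, with the coding sequence in a single exon.

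The promoter sequences show what was read at the extremes of the family. Each run is the 250 bases before the annotated start, 5′ to 3′ on the gene's own strand, from RefSeq (GRCm38.p6), and capitals mark the CpGs that the table lists. Wnt8b (chr19:44493222-44493471, plus strand) is the member with the most methylated start, and Wnt1 (chr15:98789607-98789856, plus strand) the only member called different between the libraries. Fzd4 (chr7:89404116-89404365, plus strand) is among the members with the least methylated start. Fzd9 (chr5:135251048-135251297, minus strand) was added after its values were seen, because all 42 of its CpGs in this stretch were listed.
Wnt8b: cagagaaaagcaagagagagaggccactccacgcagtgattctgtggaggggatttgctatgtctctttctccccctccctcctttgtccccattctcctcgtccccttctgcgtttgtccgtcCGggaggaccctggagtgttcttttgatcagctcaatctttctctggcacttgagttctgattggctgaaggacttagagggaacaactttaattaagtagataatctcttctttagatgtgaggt
Wnt1: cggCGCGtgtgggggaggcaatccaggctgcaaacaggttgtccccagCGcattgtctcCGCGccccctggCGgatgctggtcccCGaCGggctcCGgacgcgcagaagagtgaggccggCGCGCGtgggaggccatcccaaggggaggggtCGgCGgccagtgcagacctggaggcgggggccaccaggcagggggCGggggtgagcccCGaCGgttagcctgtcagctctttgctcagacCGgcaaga
Fzd4: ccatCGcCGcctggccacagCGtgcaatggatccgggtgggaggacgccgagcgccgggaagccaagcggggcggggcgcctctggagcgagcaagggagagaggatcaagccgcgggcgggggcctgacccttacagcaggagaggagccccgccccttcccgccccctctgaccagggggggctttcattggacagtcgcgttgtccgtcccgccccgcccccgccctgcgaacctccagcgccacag
Fzd9: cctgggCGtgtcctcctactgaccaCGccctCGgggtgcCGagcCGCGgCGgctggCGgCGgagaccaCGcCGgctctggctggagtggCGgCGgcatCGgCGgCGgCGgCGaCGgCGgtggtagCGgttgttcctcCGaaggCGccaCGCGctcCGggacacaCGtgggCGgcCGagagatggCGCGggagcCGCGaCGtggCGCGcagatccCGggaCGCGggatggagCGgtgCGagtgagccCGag
The Wnt8b stretch holds 5 CpGs, of which 1 was listed, and its reads were methylated in 5 of 5 and 6 of 7 cases in TSPAN8-high and TSPAN8-low. In the Wnt1 stretch 18 of 23 CpGs were listed, with 0 of 135 reads methylated in TSPAN8-high and 1 of 98 in TSPAN8-low. At Fzd4 3 of 25 CpGs were listed, with 0 of 18 reads methylated in each library. The 42 CpGs of Fzd9 were at 0.399% of 1003 reads in TSPAN8-high and 2.01% of 944 reads in TSPAN8-low. RefSeq gave 26 promoters of 300 bases for 23 members, with a median of 30 CG dinucleotides, against 13 over 21263 promoters of all protein-coding genes. The GC box GGGCGG, searched on both strands as GGGCGG and CCGCCC, was in 21 of the 26 (80.8%), against 46.2% of all promoters. TATAAA, on either strand, was in 2 (7.69%, against 12.6%), and CTTTGA, a core of the TCF and LEF motif, on either strand, in 4 (15.4%, against 14.4%).

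At the start used, nearly all members were unmethylated. The level of a start is the share of methylated reads pooled over listed CpGs within 1 kb either side, with at least 5 CpGs. The start was the most upstream annotated one for 23 members. For the other 10 (Wnt5a, Wnt7b, Wnt8a, Wnt10a, Fzd2, Fzd3, Fzd6, Fzd8, Lrp5 and Lrp6) it was the end of the gene span with more listed CpGs, a choice that names the side of the start for 81.4% of 15622 genes with a known strand. Whether that choice favours unmethylated ends was not tested. All 33 starts could be measured, with a median of 45 CpGs. Of these, 30 were below 20% in both libraries, where 84.3% of the starts of all protein-coding genes were. The median level over members was 0.989% and 1.29%, and over all genes 1.73% and 1.76%. Further annotated starts were listed for Wnt5b and Wnt11. In the 250 bases before one of the downstream starts of Wnt5b, 10 of 34 reads were methylated in TSPAN8-high and 13 of 37 in TSPAN8-low (29.4% and 35.1%, 3 CpGs), and before the other no CpG was listed. Before the second start of Wnt11 it was 0 of 139 and 9 of 116 reads (7.76%, 3 CpGs), a difference that was not tested.

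Among the ligands, 16 of 19 starts were below 20% in both libraries. Wnt16, a ligand of bone and skin, had no methylated read at its start, 0 of 91 in TSPAN8-high and 0 of 132 in TSPAN8-low, which allows up to 3.30% and 2.27%. Wnt6 was at 0.188% (95% exact interval 0.00475 to 1.04) in TSPAN8-high and 0.803% (0.219 to 2.04) in TSPAN8-low, and Wnt7b, a ligand of lung and nervous system development, at 0.370% and 0.548%. These levels rest on few methylated reads, 1 and 4 at Wnt6 and 6 and 9 at Wnt7b, in TSPAN8-high and TSPAN8-low. Wnt3, a ligand needed for the primitive streak, had 10.3% (95% exact interval 8.44 to 12.3) in TSPAN8-high and 7.83% (6.10 to 9.87) in TSPAN8-low. Its mean of 9.05% became 1.19% with windows of 500 bp and 18.2% at 20 or more reads. The interval covers counting error at most, so it understates what the choice of CpGs does. At Wnt16, windows of 2 kb gave 16.9%, again as a mean. The exceptions among the ligands were Wnt8b, Wnt10a and, in TSPAN8-low only, Wnt1 (10.4% and 21.3%).

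Wnt8b (chromosome 19, 44493472 to 44514273), a ligand of the developing forebrain, was the only member with a start above 80%. Its 11 CpGs were at 94.5% (95% exact interval 90.1 to 97.3) of 182 reads in TSPAN8-high and 97.1% (93.4 to 99.1) of 173 reads in TSPAN8-low. Starts above 80% in both libraries made up 8.82% of all genes. At Wnt10a (chromosome 1, 74792019 to 74804176) the end with 18 CpGs was at 23.7% and 23.2%, while the other end, with 10 CpGs, was at 2.61% and 5.13%. As a mean of both libraries the first end was at 23.4%, but at 2.82% at 10 or more reads and at 46.6% with 1 CpG kept per 100 bp. Which of these is the start of Wnt10a was not settled from the sources used here. Wnt8a (chromosome 18, 34542327 to 34548061) was at 18.7% and 12.2% at the end used as its start, at 34548061 with 10 CpGs. Its other end, with 5 CpGs, was at 17.4% and 22.1%, not below 20% in both libraries. Which of these is the start of Wnt8a was likewise not settled. The end used, 15.5% as a mean of both libraries, was at 6.13% at 10 or more reads and 51.2% with windows of 2 kb.

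All 10 Frizzled starts were below 5% in both libraries, from 0.178% at Fzd1 in TSPAN8-high to 4.01% at Fzd6 in TSPAN8-low. With windows of 2 kb Fzd6 was at 21.0%, as a mean of both libraries. The least methylated were Fzd4, the receptor of norrin in the eye, at 0.375% and 0.238%, and Fzd3, an axon guidance receptor, at 0.528% and 0.323%. The starts of the 4 further receptors ran from 0.408%, at Lrp6 in TSPAN8-low, to 2.96%, at Lrp5 in TSPAN8-low. Within 1 kb of the start, the ligands thus held all members above 5%.

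**Figure D1:**
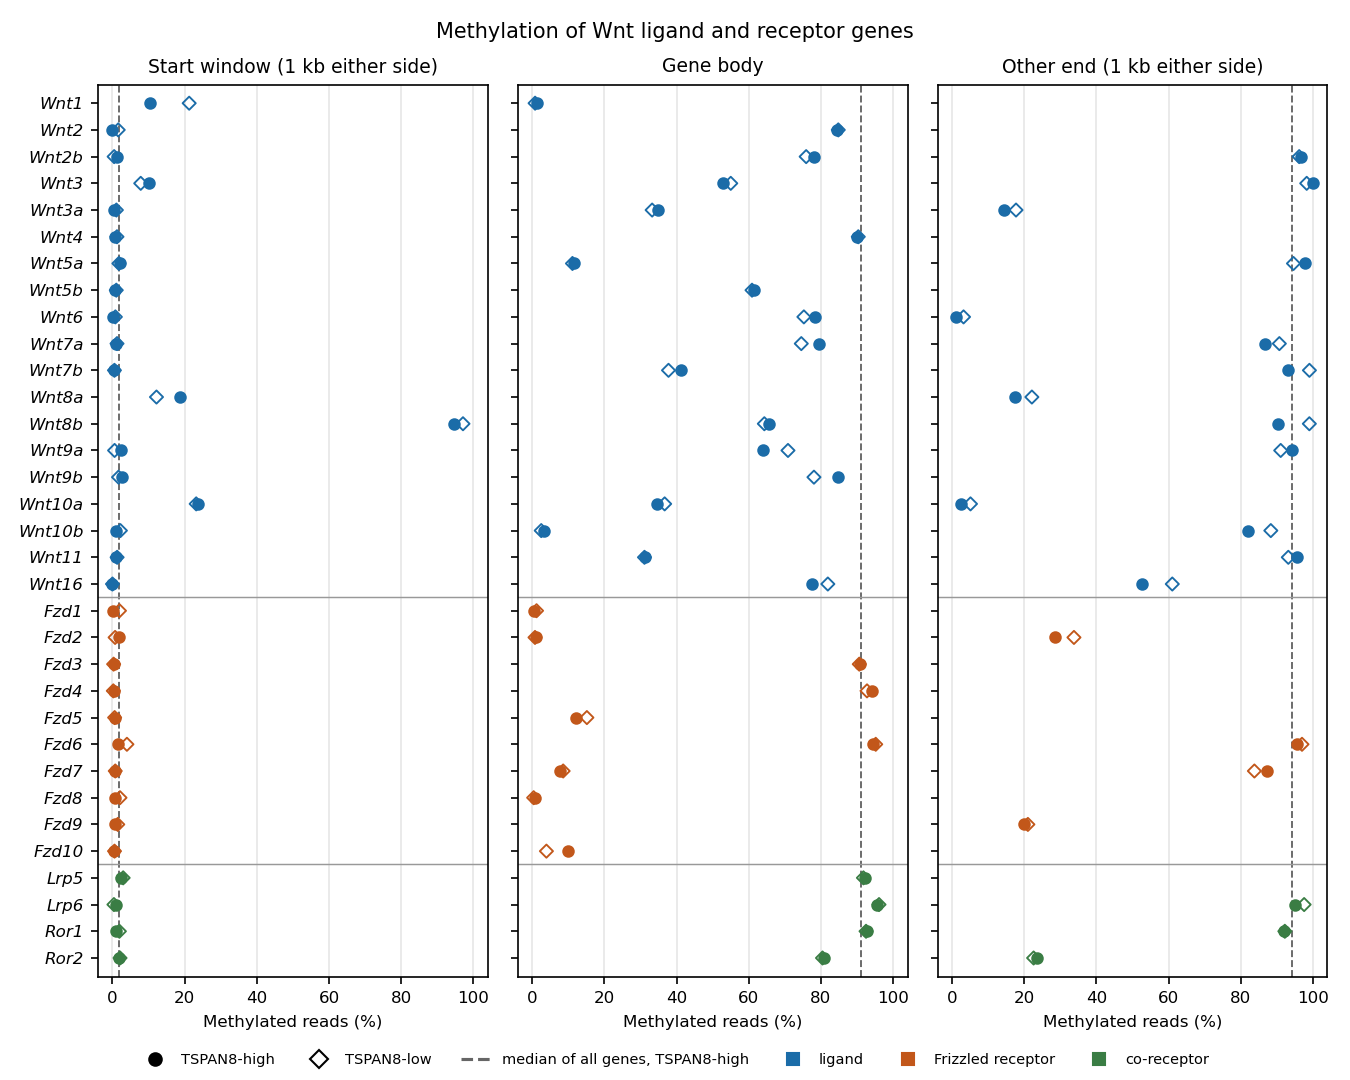
Methylated reads (%) at the start, in the gene body and at the other end of each member, with TSPAN8-high as filled circles and TSPAN8-low as open diamonds. Most starts lie near 0 and that of Wnt8b is highest (94.5% and 97.1%), bodies spread from 0.398% to 96.1%, and dashed lines give the median of all genes in TSPAN8-high.

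Gene bodies, by contrast, covered the whole range. A body is the part of the gene more than 1 kb from its start and from its other end, and 31 members had one with at least 5 CpGs. The exceptions were Wnt8a, with 3 CpGs, and Fzd9, whose span of 2110 bp leaves none that was listed. The median body was at 63.9% and 64.3%, and over 16626 genes at 91.2% and 91.4%. Bodies below 20% in both libraries numbered 9 of 31 members, against 4.47% of all genes, and bodies above 80% also 9 of 31, against 70.5%. No test of the family against other genes was made.

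The unmethylated bodies were those of Wnt1, Wnt5a, Wnt10b, Fzd1, Fzd2, Fzd5, Fzd7, Fzd8 and Fzd10. Fzd8 was at 0.655% (95% exact interval 0.179 to 1.67) in TSPAN8-high and 0.398% (0.0483 to 1.43) in TSPAN8-low over 31 CpGs. Fzd2 was at 0.983% and 0.771% over 47 CpGs, and Fzd1 at 0.560% and 1.20% over 40 CpGs. Wnt1, the ligand of midbrain and hindbrain patterning, was at 1.38% and 0.794% over 53 CpGs, and its neighbour Wnt10b at 3.39% and 2.50% over 67 CpGs. These 5 bodies were all below 5% in both libraries. Fzd7 (7.58% and 8.57%), Fzd5 (12.1% and 15.1%) and Fzd10 (9.79% and 3.93%) were a little higher, and Wnt5a, over 173 CpGs, was at 11.6% and 11.2%. The count depends on how CpGs are weighted: with 1 CpG kept per 100 bp it was 5 of 29, since Wnt5a (29.2% as a mean of both libraries), Fzd5 (24.4%) and Fzd7 (23.0%) lay above 20% and Fzd10 had under 5 CpGs. It was 4 of 27 with windows of 2 kb and 4 of 22 at 20 or more reads. The share of all genes under these settings is not given here, so these counts cannot be set against a background.

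The most methylated bodies were those of receptors. Lrp6 was at 95.5% (95% exact interval 94.8 to 96.0) in TSPAN8-high and 96.1% (95.5 to 96.6) in TSPAN8-low, Fzd6 at 94.4% and 95.2%, and Fzd4 at 94.1% and 92.8% over 9 CpGs. Ror1, with 628 CpGs the most covered body, was at 92.7% and 92.5%, and Lrp5 at 92.3% and 91.8%. Fzd3 had 90.8% and 90.6%. Of the Frizzled bodies, Fzd3, Fzd4 and Fzd6 were thus above 90% and the other 6 measured below 20%, but with windows of 500 bp Fzd3 was at 71.3%, as a mean of both libraries. Most ligands lay between, among them Wnt11 (31.1% in both), Wnt3a (34.8% and 33.2%), Wnt10a (34.5% and 36.7%), Wnt7b (41.2% and 37.8%), Wnt3 (52.9% and 55.0%) and Wnt5b (61.5% and 60.9%). Of these ligands, Wnt11 was at 50.6% and Wnt3a at 66.0% with 1 CpG kept per 100 bp, as means of both libraries. The 18 measured ligand bodies held 2670 cytosines. As a mean of both libraries, 46.2% of these cytosines were below 20%, 48.5% above 80% and 5.32% between. That pool includes unmethylated bodies such as Wnt1 and methylated ones such as Wnt4, and the ligands that lay between were not counted apart. In the bodies of all genes the shares were 10.02%, 84.3% and 5.65%. Counted in tiles of 1 kb, 62 of 495 member body tiles (12.5%) were below 20% in both libraries, against 5.36% over all genes, and they lay in 26 of 31 members (83.9%), against 40.6% of all genes.

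Longer members had more methylated bodies, with a Pearson r of 0.715 between the level and the log of the length and a Spearman rho of 0.697 over 31 genes, which share both libraries. Of the 9 measured bodies in genes of up to 8 kb, 8 were below 20% in both libraries, against 24.0% of 2263 genes of that length. Fzd4, with a span of 5745 bp, was the exception, and Fzd5 and Fzd7 are among the 8. Bodies begin 1 kb from the start, and at all 8 the unmethylated run around the start, described below, reached further. It ended from 1416 bp (Fzd10) to 3215 bp (Fzd7) after the start. In these 8 genes the low body, the gap between start and body and the unmethylated run rest in part on the same CpGs. In members of 8 to 50 kb, only Wnt5a of 16 was below 20%, against 2.12% of genes of that length, and in members over 50 kb none of 6, against 0.0203% (1 of 4916). These length classes were chosen after the values were seen.

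**Figure D2:**
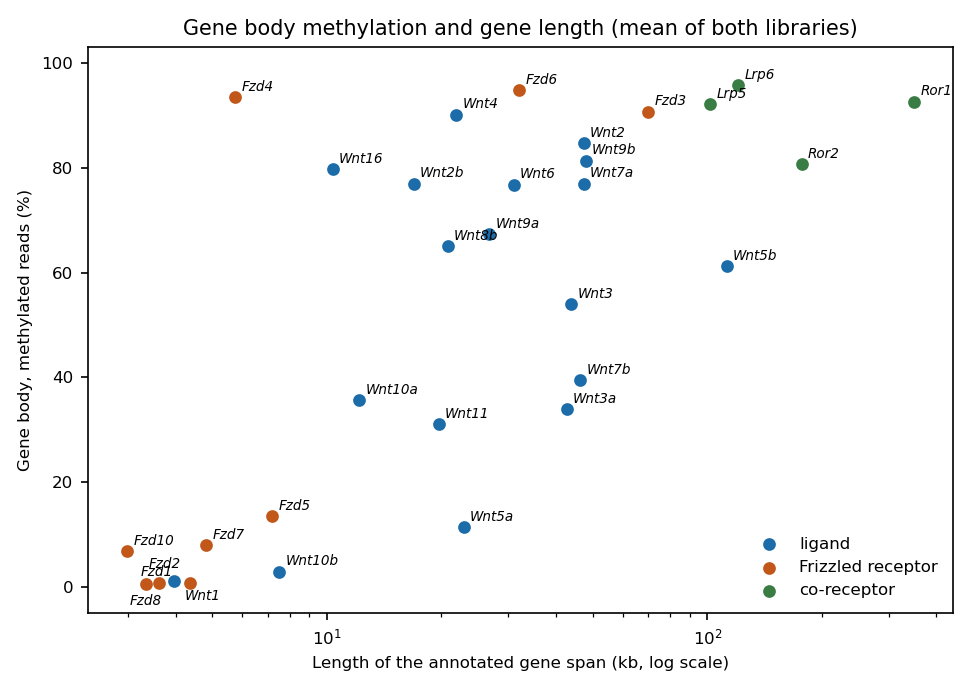
Gene body level (mean of both libraries, %) against the length of the gene span (kb, log scale) for the 31 members with a measured body. Compact Frizzled genes, Wnt1 and Wnt10b sit below 20% at the left, Fzd4 stands apart among the short genes, and Wnt5a is low for its length.

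Starts were compared with bodies in each library with a two-sided Fisher's exact test of their reads, adjusted over 14037 genes by the Benjamini-Hochberg method, and called where the adjusted p was below 0.05 and the gap at least 20 percentage points in both. The start was the less methylated part in 85.2% of all genes and in 20 of 31 members. Among the ligands it was so in 13 of 18, among the Frizzled genes in 3 of 9, and in all 4 further receptors. The gap was widest at Lrp6, with the body 94.5 points above the start in TSPAN8-high and 95.7 in TSPAN8-low, at Fzd4 (93.7 and 92.5), at Fzd6 (92.9 and 91.2), at Ror1 (91.6 and 90.6) and at Fzd3 (90.2 and 90.3). It was close to 0 at Fzd8 (0.00689 and -1.69), Fzd2 (-0.916 and 0.0410) and Fzd1 (0.382 and -0.742). At Wnt1 the body was the lower part, at -8.97 and -20.5 points, which did not reach the threshold in TSPAN8-high. Wnt8b alone was called the other way, with the body at -28.8 and -32.8 points relative to the start (adjusted p = 2.92e-19 and 1.38e-24, Fisher's exact test), as were 2.19% of all genes. A read that covers several CpGs counts at each, so these p-values are too small.

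The other end of the gene was mostly methylated. Of 21 members with at least 5 CpGs there, 13 were above 80% in both libraries, against 68.6% of 8391 genes, with a median of 87.3% and 90.7%. Ends below 20% in both were found at 3 ligands, against 15.9% of all genes. They were Wnt3a (14.4% and 17.7%), the end of Wnt10a already given, and Wnt6, at 1.24% (95% exact interval 0.500 to 2.54) and 3.20% (1.94 to 4.96) over 28 CpGs. Wnt6 and Wnt10a are neighbours on chromosome 1, and the unmethylated end of Wnt6, at 74785322, faces the unmethylated end of Wnt10a, at 74792019. Ror2 (23.6% and 22.6%), Fzd9 (20% and 21.0%) and Fzd2 (28.5% and 33.8%) had ends of low methylation as well. At Fzd9 and Fzd2, with spans of 2110 and 3628 bp, the window at this end overlaps the unmethylated run around the start, described below.

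The unmethylated zone around the start was long. It was measured as the run of listed CpGs around the start over which the running mean of 5 CpGs stayed below 20%, with gaps of at most 2 kb. Its median length was 2052 bp over the 33 members and 798 bp over 19921 genes, and 54.5% of members but 15.5% of all genes had more than 2 kb. More than 4 kb was reached by 7 members, Wnt5a, Wnt11, Fzd7, Fzd5, Fzd1, Fzd8 and Fzd10, and by 2.50% of all genes. At Wnt5a (chromosome 14, 28504543 to 28527448), a ligand of planar polarity and limb outgrowth, 151 CpGs over 8246 bp were unmethylated, from 533 bp before the start used to 7712 bp after it. At Wnt11, a ligand of kidney branching, the run was 5435 bp, with 125 CpGs, and held both annotated starts of the gene. Fzd7 (4588 bp), Fzd5 (4397 bp) and Fzd1 (4340 bp) followed. In these Frizzled genes the run covered 66.9%, 39.4% and 58.5% of the gene span, and at Fzd2 81.9%. The shortest runs above 0 were those of Fzd4 (1064 bp) and Wnt5b (1088 bp). At Wnt8a, Wnt8b and Wnt10a the CpGs nearest the start used were not below 20%, so the length was 0, as for 38.5% of all genes. At Wnt10a a run of 3215 bp, with 27 CpGs at 6.33% and 4.08%, began 159 bp from the end used, inside the gene.

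**Figure D3:**
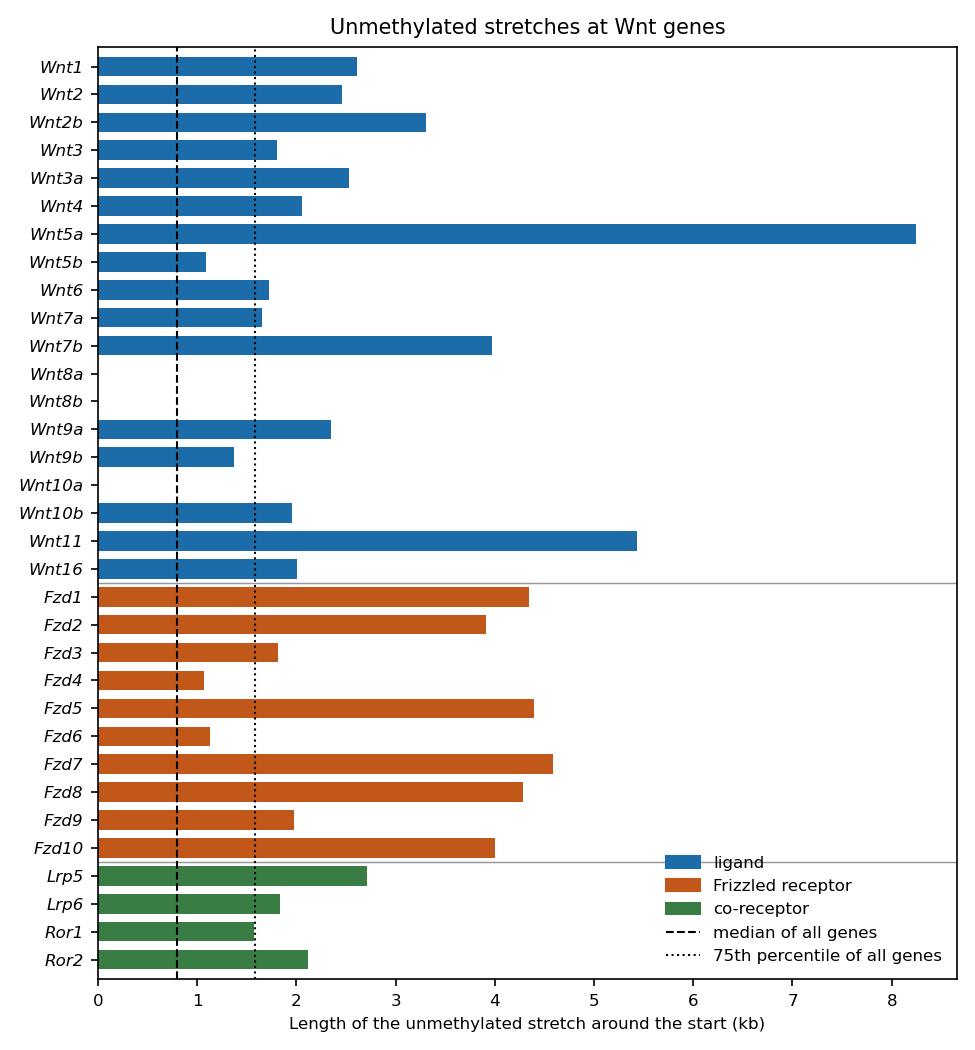
Length (kb) of the unmethylated stretch around the start of each member, coloured by role. The median of all genes is the dashed line at 0.798 kb and the 75th percentile the dotted line at 1.58 kb, and 25 of 33 members exceed the latter.

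On both flanks of the start the members' averages lay below those of all genes, a difference that was not tested. In the bin from 1 to 1.5 kb downstream, 25 members with at least 2 listed CpGs averaged 5.41% and 6.46%, and 8499 genes averaged 37.6% and 37.7%. From 1.5 to 2 kb downstream the averages were 15.3% and 16.0% over 19 members, and 60.8% and 61.1% over all genes. Upstream, from 1.5 to 1 kb before the start, 15 members averaged 25.8% and 23.3%, and all genes 51.8% and 51.9%. From 3.5 to 4 kb downstream 15 members averaged 75.5% and 73.4%, and all genes 82.0% and 82.3%. From 4 to 4.5 kb it was 67.7% and 66.7% over 11 members against 81.8% and 81.9%, and from 4.5 to 5 kb 71.1% and 70.9% over 10 members against 82.2% in both.

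**Figure D4:**
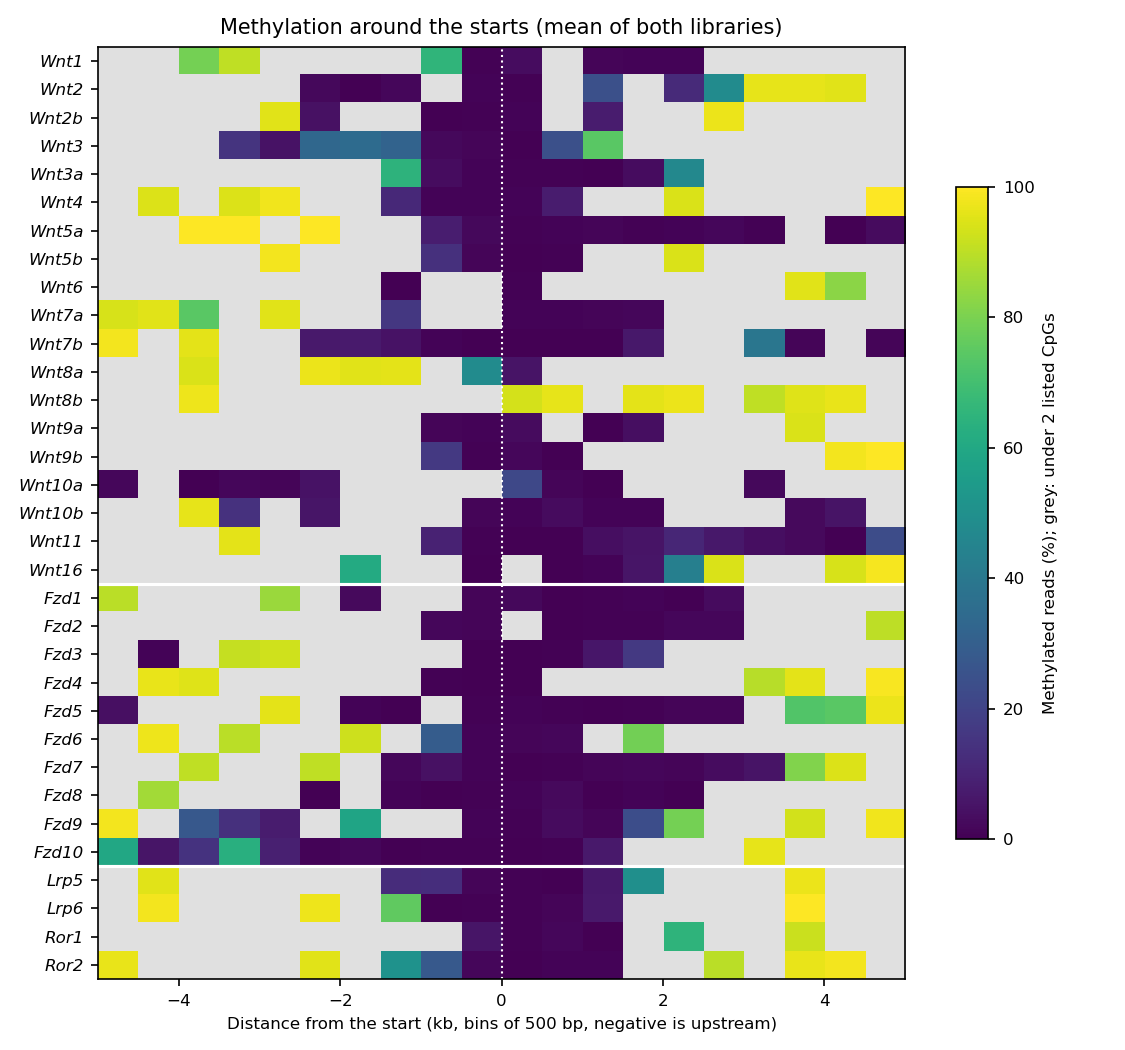
Methylated reads (mean of both libraries, %) in bins of 500 bp within 5 kb of the start of each member, upstream at the left and grey where under 2 CpGs were listed. Dark bins surround nearly every start and reach furthest downstream at Wnt5a and Wnt11, while Wnt8b is methylated throughout. For the 10 members without an annotated start the direction is that of the CpG-richer end.

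Several members held further unmethylated runs away from the start. Runs of at least 10 CpGs more than 1 kb from the start lay inside Wnt3, Wnt3a, Wnt5a, Wnt5b, Wnt6, Wnt7b, Wnt8b, Wnt9b, Wnt10b and Ror2, a search added after the values were seen. The search covered the members only, so no share of all genes can be set beside it. The run with the most CpGs was in Wnt5b, a ligand of cartilage and fat cell differentiation, where 101 CpGs over 1721 bp (chromosome 6, 119478978 to 119480698) were at 1.93% and 0.603%, at 63.6 to 65.4 kb from its first annotated start. In Wnt3, 53 CpGs 35.0 to 36.4 kb from the start were at 1.01% and 0.612%, and in Wnt3a 40 CpGs over 466 bp were at 1.45% and 1.12%. Wnt8b, methylated at its start, held 23 CpGs over 1469 bp (chromosome 19, 44510705 to 44512173) at 2.22% and 2.04%, near its other end. Ror2, the receptor mutated in brachydactyly, held 19 CpGs over 2046 bp near its far end at 5.70% and 3.81%. Both such runs of Wnt9b lie upstream of its annotated start and outside its body as used here. One is the start of Wnt3, and the other, chromosome 11, 103770752 to 103772119, held 16 CpGs at 11.8% and 9.74%.

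Between TSPAN8-high and TSPAN8-low the family differed little. Differences, high minus low, ran from -10.9 to 6.53 percentage points at the starts, from -6.98 to 6.57 in the bodies and from -8.69 to 3.48 at the other ends. Calls needed an adjusted p below 0.05 (Fisher's exact test, Benjamini-Hochberg over all genes) with 10 points or more between the libraries. Of 33 starts 1 was called, Wnt1, lower in TSPAN8-high, where 0.601% of 15808 starts were called in either direction and 0.354% in that one. None of 31 bodies was called, against 0.674% of 16626, and none of 21 other ends, against 0.572% of 8391. None of the 632 member tiles of 1 kb was called, against 0.268% of all tiles (with no minimum difference 5, against 0.358%), and none of the 9127 cytosines at 20 points, against 0.00111% of all. Without adjustment, p was below 0.05 at 7 starts (17.0% of all genes), 6 bodies (19.7%), 4 other ends (11.7%) and 88 cytosines (0.964%, against 1.47% of all cytosines).

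At Wnt1 (chromosome 15, 98789857 to 98793830) the start was at 10.4% (95% exact interval 7.32 to 14.1) of 338 reads in TSPAN8-high and 21.3% (16.7 to 26.4) of 287 reads in TSPAN8-low. The difference was -10.9 points (95% Newcombe interval -16.7 to -5.19; Fisher's exact test, adjusted p = 0.0131). Of the methylated reads, 33 of 35 in TSPAN8-high and 55 of 61 in TSPAN8-low lay on 4 CpGs 750 to 1000 bp before the start, which held 14.8% of the reads of the window in TSPAN8-high and 25.4% in TSPAN8-low. On these 4 CpGs the levels were 66.0% of 50 reads and 75.3% of 73 reads, a difference of -9.34 points (95% Newcombe interval -25.6 to 6.61). The other 34 CpGs were at 0.694% of 288 reads and 2.80% of 214 reads, a difference of -2.11 (95% Newcombe interval -5.33 to 0.243). As an unweighted mean over cytosines the difference at Wnt1 was -3.39 points, and with windows of 500 bp it was -1.27 (adjusted p = 0.848, Fisher's exact test). With windows of 2 kb it was -1.31 (adjusted p = 0.482, Fisher's exact test), and with 1 CpG kept per 100 bp -17.1 (adjusted p = 0.422, Fisher's exact test).

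With no minimum difference, 2 more starts and 2 bodies passed the adjusted p, where 4.14% of all starts and 6.66% of all bodies did. The start of Fzd1 was at 0.178% and 1.94%, a difference of -1.76 points (95% Newcombe interval -2.78 to -0.947; Fisher's exact test, adjusted p = 0.0034). The start of Wnt9a, a ligand of joint development, was at 2.43% and 0.588%, a difference of 1.84 (95% Newcombe interval 0.706 to 3.10; Fisher's exact test, adjusted p = 0.0432). The body of Wnt7a, which patterns the limb and the female tract, was at 79.3% and 74.5% (4.78 points, 95% Newcombe interval 1.81 to 7.74; Fisher's exact test, adjusted p = 0.0343). The body of Wnt9b, the inducer of kidney tubules, was at 84.6% and 78.1% (6.57 points, 95% Newcombe interval 2.55 to 10.6; Fisher's exact test, adjusted p = 0.0291). All 4 also passed with windows of 500 bp, where the differences were -3.24, 2.27, 5.23 and 9.74 in the same order (Fisher's exact test, adjusted p = 0.00677, 0.0111, 0.0155 and 0.000679). None passed with 1 CpG kept per 100 bp, where they were -1.78, -1.39, 3.48 and 3.44, nor at 10 or more reads, where they were -0.329, 0.496, 4.15 and 6.497 (Fisher's exact test, adjusted p = 0.657, 1, 0.250 and 0.0931). The sign turned at Wnt9a with that thinning, and at Wnt7a in the unweighted mean over cytosines (-0.0535).

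**Figure D5:**
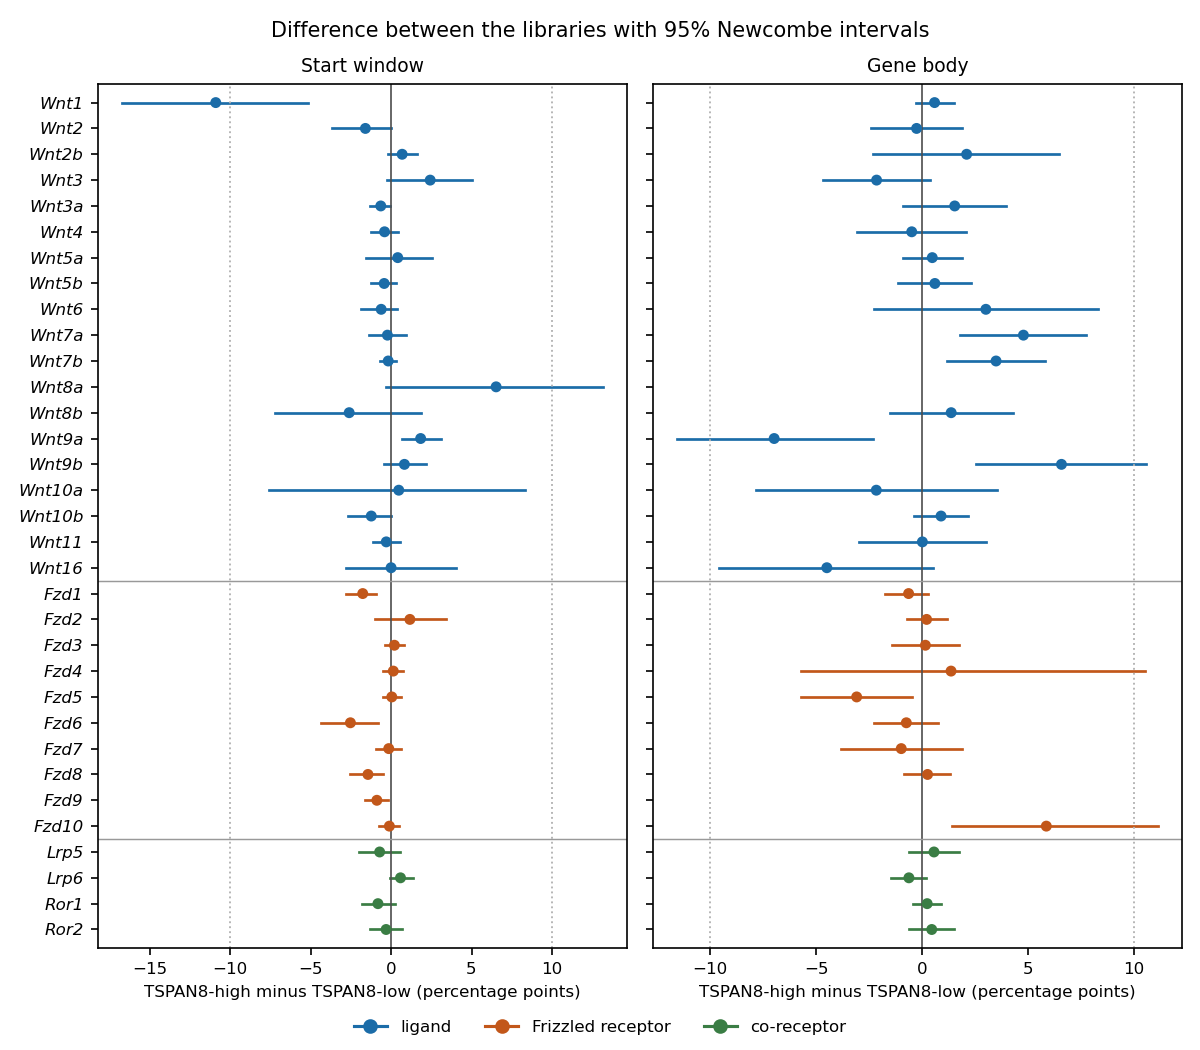
Difference in methylation, TSPAN8-high minus TSPAN8-low (percentage points), at the start and in the body of each member, with 95% Newcombe intervals. These cover counting error at most, and are too narrow because a read counts at each CpG it covers. Dotted lines mark 10 points: Wnt1 at -10.9 is the only start beyond them, and no body is.

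Starts in the rest of the pathway were mostly below 20% in both libraries as well, as were 84.3% of the starts of all protein-coding genes. Of the secreted modulators of Wnt signalling, 17 of 18 measured starts were below 20% in both libraries, with a median of 0.920% and 1.77%. The exception was Dkk4, an LRP5 and LRP6 antagonist, at 90.4% and 94.7%, and the least methylated was its relative Dkk2, at 0.356% in TSPAN8-high and 0 of 284 reads in TSPAN8-low, which allows up to 1.06%. All 19 measured starts of the other surface and secretion genes were below 20%. Ordered by the mean of both libraries they ran from Celsr1, a planar polarity cadherin, at 0.458% and 0.335%, to Rnf43, a ubiquitin ligase that removes Frizzled receptors, at 11.9% and 19.7% over 5 CpGs. All 23 measured starts of the intracellular and nuclear genes were below 20%. By the same mean they ran from Bcl9, a beta-catenin cofactor, at 0.646% and 0.178%, to the Dishevelled gene Dvl2, at 4.84% and 3.79%. Starts with under 5 CpGs were left out of these counts, and those with any listed CpG were methylated. Among the secreted modulators they were Sost (96.7% and 91.7%, 3 CpGs) and Sostdc1 (92.8% and 91.7%, 3 CpGs). Among the intracellular genes they were Axin1 (95% and 100%, 3 CpGs) and Nkd1 (99.1% and 97.5%, 4 CpGs). No start of the 3 lists was called, at a background of 0.601%.

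Bodies in these lists had medians of 75.2% and 70.7% for the secreted modulators, 87.3% and 87.3% for the surface genes, and 88.6% and 89.0% for the intracellular genes, in TSPAN8-high and TSPAN8-low. None of the measured bodies (19, 20 and 25) was called, and with no minimum difference 4 passed, all 4 lower in TSPAN8-high, where 4.43% of all bodies passed in that direction. They were Cthrc1 (52.0% and 61.8%), Lrp4 (76.8% and 80.5%), Vangl1 (83.1% and 86.6%) and Lef1 (73.6% and 78.0%). Sost, the antagonist sclerostin, had a body at 0.929% and 1.12% over 43 CpGs, and Kremen2, a receptor of the Dickkopf proteins, one at 5.19% and 5.52%. The longest unmethylated starts were those of Lef1, a nuclear partner of beta-catenin, with 7373 bp, of Lgr5, a receptor of R-spondins, with 4078 bp, and of Sfrp2, a secreted Frizzled-related protein, with 4028 bp. The median length was 2189 bp in the secreted modulators, 1809 bp in the surface genes and 1262 bp in the intracellular genes.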

How the data were processed

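DNA methylation was read by RRBS in 2 libraries, TSPAN8-high and TSPAN8-low, and the deposited table has a line per CpG cytosine and strand. Its levels are deposited as a fraction of reads methylated, rounded to 2 decimals, and the deposited coverage is a count of reads, never below 5. The deposited p-value and difference columns (unit other) were not used. Bowtie, SICER, mm9 and mm10 are named in the submitters' processing notes with no assay beside them, and the caller is not given in the sources used here. Coordinates are mm10: all 116758 listed plus-strand CpGs inside RefSeq GRCm38.p6 promoters fell on a CG of the sequence.

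Levels were multiplied by coverage and rounded to recover methylated reads, which were pooled per gene part. Windows reached 1 kb either side of a gene end, with at least 5 CpGs. The planned start from the strand was taken as the most upstream start of the RefSeq promoter table, which at Wnt2, Wnt6 and Wnt9b lies more than 1 kb inside the gene span, and bodies were limited to the part behind it. Tiles of 1 kb had at least 3 CpGs. Fisher's exact tests (Python 3.11.15, own code checked against scipy 1.17.1 and tested on simulated data) were adjusted by Benjamini-Hochberg over all features of a kind. Level intervals are exact Clopper-Pearson intervals. A read counts at each CpG it covers, so pooled reads are not independent molecules. Intervals, and the limit of 3 counts beside a level of 0, cover no more than counting error. They are too narrow even for that, and p-values are too small.

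The members and lists were chosen with earlier results of these data known. All members were accounted for, and those named with full values were called, or among the 5 highest or lowest in start level, body level, body minus start or stretch length, and of each pathway list the called genes and the extremes at the start. Kcnq1ot1 is not protein-coding and was left out. Alternatives were other read minima, windows, thinning to 1 CpG per 100 bp, removal of the deepest sites, unweighted means, other minimum differences, other definitions of the start, of stretches and of tiles.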

Additional observations from a re-analysis of the deposited data

How the results depend on the processing

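Each fraction had 1 library, so no library could be left out. No paired analysis was possible because each fraction has a single library. Of 33 starts, 1 (Wnt1) was called as reported, 0 with a minimum difference of 20 points and 3 with no minimum. With 1 CpG per 100 bp (32 starts tested) and windows of 500 bp (30) it was 0. At 10 or more reads (30) and 20 or more reads (16) it was also 0, but Wnt1 had too few CpGs there and was not tested. With windows of 2 kb it was also 1, but Wnt16 (23.1% and 10.7%, adjusted p = 0.0138, Fisher's exact test) in place of Wnt1. At the other ends 0 were called, and 1 with windows of 2 kb, Fzd5 (70.9% and 86.2%, adjusted p = 0.0352, Fisher's exact test). In the bodies 0 were called, and 2 with no minimum. Bodies below 20% numbered 9, and, in alternatives added after seeing the data, 5 with 1 CpG per 100 bp, 4 at 20 or more reads and 4 with windows of 2 kb. Of the tiles 0 were called, 1 at 10 or more reads, in Wnt7b (33.9% and 63.9%, 3 CpGs, adjusted p = 0.0466, Fisher's exact test), and 5 with no minimum. The reversals were Wnt9a at the start, -1.39 points with 1 CpG per 100 bp, and Wnt7a in the body, -0.0535 as an unweighted mean.

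At 20 or more reads 16 starts and 10 pairs of start and body remained, so 15 starts were below 20% (30 as reported) and 9 were lower than the body (20 as reported). The median start, as a mean of both libraries, was 1.14%, and 0.653% at 20 or more reads and 1.81% with windows of 2 kb. The median body was 65.0%, and 60.9% at 10 or more reads, 82.2% with 1 CpG per 100 bp, 54.5% with windows of 500 bp, 82.0% with windows of 2 kb, and 57.2% with the start at the CpG-richer end or, added after seeing the data, at the end of the gene span. With the start at either of those, Wnt9b was at 28.9% at the start and 31.3% in the body. The median unmethylated stretch ranged from 1655 to 2155 bp over its alternatives.

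Limits: at a median of 10 reads per cytosine, single CpGs were not resolved, and levels of 1% or less rest on few methylated reads. RRBS lists only part of the CpGs, and the median other end had 7.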
